A study of Pyrus pyrifolia with 6 samples.

Results

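The regions described here are the long CHH gains of bagged pear skin: stretches of at least 300 bp in which cytosines in CHH context (H is A, C or T) were methylated at a higher level in the skin of bagged than of unbagged fruit. They were chosen by 3 columns of the authors' table of differentially methylated regions: the context, a bagged minus unbagged level above 0, and a length of 300 bp or more, on the assembled chromosomes. The rule was met by 1872 regions, out of 42128 CHH gains and 46661 CHH regions of either direction on the chromosomes, and out of 53954 regions in the whole table. Since length and direction chose them, these are given below as descriptions.

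The study set skin of 'Cuiguan' fruit (Pyrus pyrifolia) grown in paper bags against skin of fruit left uncovered, with 3 samples per group, in relation to russeting, the replacement of smooth skin by a brown corky layer. Fruit of both groups came from trees of 7 years in an orchard and was sampled 115 days after full bloom. In the bagged group a white bag of a single layer was put on 20 days after full bloom, and a yellow-white one with a double layer followed at 40 days. DNA was extracted from skin tissue as a whole, so a change in the make-up of its cells and a change within cells cannot be told apart. Methylation was read by bisulfite sequencing, in which unmethylated cytosines are read as thymine, and the authors' table gives a mean level for each region in each group, over its replicates. No value below therefore has a spread between replicates, the sequencing depth is unknown, and no difference between the groups was tested. Pairs of levels are given with unbagged skin first. The 95% exact (Clopper-Pearson) binomial intervals set beside shares cover counting error only, and regions are not replicates of the treatment.

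Plants methylate cytosines in 3 contexts. In CG and CHG context the opposite strand carries a cytosine too, which lets a mark be copied after the DNA is replicated, whereas CHH sites are asymmetric and their methylation has to be set again. In Arabidopsis this is done along 2 routes: RNA-directed DNA methylation, in which small RNAs guide the methyltransferase DRM2, mostly to short transposons and to the edges of long ones, and the methyltransferase CMT2, which acts in the bodies of long transposons in heterochromatin. CHH methylation is therefore usually found in patches over transposons and repeats. The length and number of cytosines of a listed region describe the span of the called difference, and not how far the mark itself extends. Genes, transposons and base sequence at the pear regions were not analysed here.

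Long regions made up a small share of the CHH gains in number and a larger one in sequence. They were 4.44% of the gains (95% exact interval 4.25 to 4.64), but held 751 of their kilobases, which is 12.4%, and 197364 of their cytosines, or 11.6%. Most were only somewhat above the limit: the median length was 355 bp, the quartiles 321 and 416 bp, and 1310 of them (69.98%) were shorter than 400 bp. A further 345 measured 400 to 499 bp, 195 measured 500 to 999 bp and 22 measured 1000 bp or more. Regions on both sides of the limit were close in level. The 116 gains of 300 to 304 bp had median levels of 13.1% in unbagged and 27.5% in bagged skin, and the 128 gains of 295 to 299 bp, just outside, had 14.3% and 29.7%.

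Long CHH regions with the opposite direction were few. Only 47 CHH losses, that is regions with a lower level in bagged skin, reached 300 bp, which is 1.04% of the 4533 losses on chromosomes (0.763 to 1.38). Gains were thus 97.6% of the long CHH regions (96.8 to 98.2), against 89.97% of the shorter ones (89.7 to 90.3). The share of gains was higher in each successive length class from 86.02% at 51 to 99 bp, over 94.1% at 150 to 199 bp, to 99.1% at 400 to 499 bp (345 gains and 3 losses, 97.5 to 99.8). It was 95.6% at 500 to 999 bp, where 9 losses were listed, and 84.6% at 1000 bp or more, where 22 gains and 4 losses gave an interval of 65.1 to 95.6. The thresholds of the caller are unknown here, and their part in this trend was not tested.

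**Figure D1:**
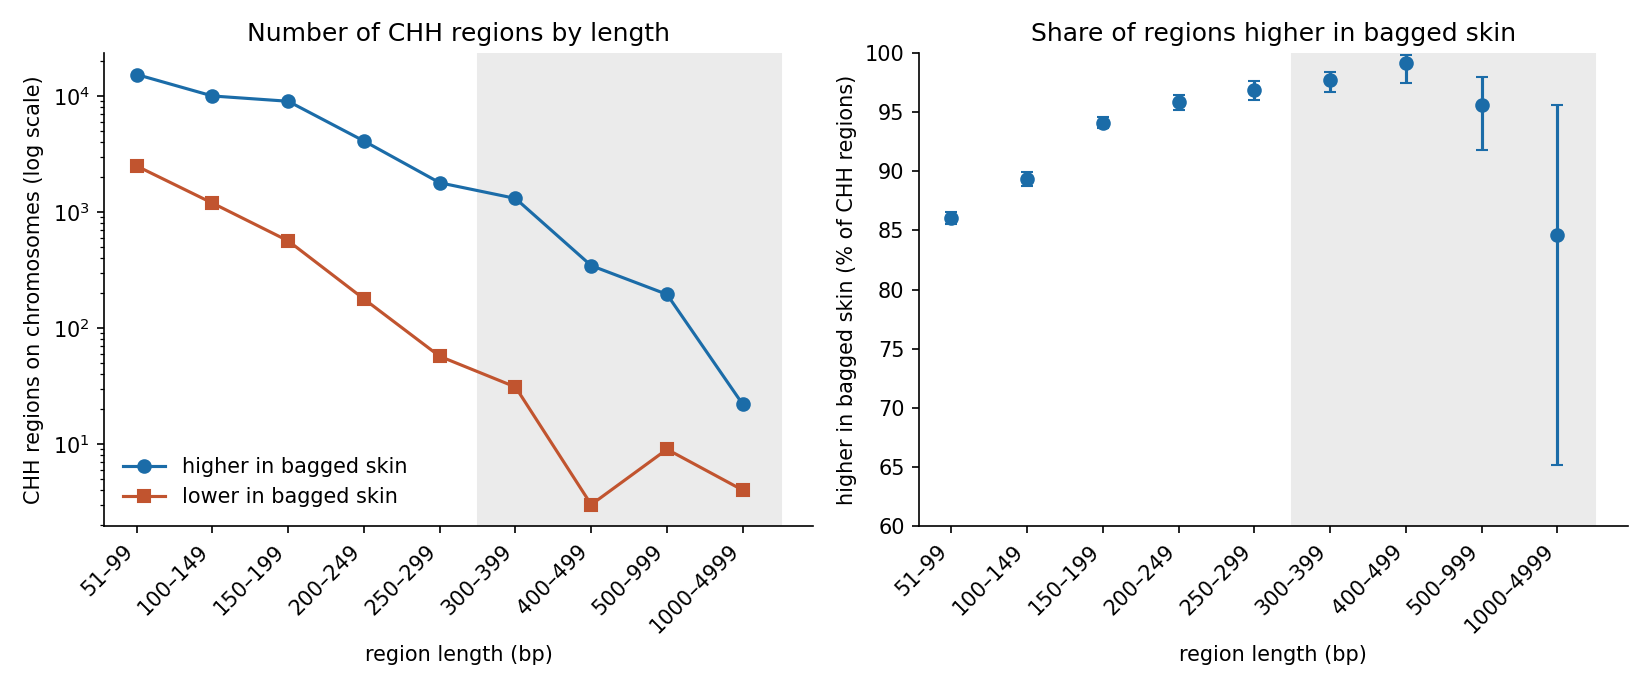
Number of CHH regions on the chromosomes by length (left, log scale, gains in blue and losses in orange) and share of them with a higher level in bagged skin (right, in percent, from 60, bars are 95% exact binomial intervals), with the long classes shaded. The share is highest at 99.1% for 400 to 499 bp and is 84.6% in the longest class, which holds 26 regions.

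In the longest regions the counted cytosines were widely spaced. Spacing was taken as length divided by the number of CHH cytosines counted in the region, which need not be all those in its sequence. In a typical long gain a counted CHH cytosine came every 3.50 bp (quartiles 3.09 and 4.04). The shorter gains had the same median within 0.02 bp, at 3.52 (3.04 and 4.20). Between 3 and 5 bp per cytosine lay 1324 long gains, or 70.7%, and 65.8% of the shorter ones. Whether the table counts every CHH cytosine of a region or only those with reads is not stated, and this bears on the spacing. A tail of 103 long gains had 8 bp per cytosine or more, a limit set after the values were seen. That is 5.50% of the long gains (4.51 to 6.63), 1.95% of the shorter gains (1.82 to 2.09), and 22 of the 47 long losses (46.8%, 32.1 to 61.9).

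Spacing is computed from length, so they are not independent by definition, but spacing need not rise with length. Their Spearman rho was 0.0996 over the 1872 long gains and -0.0071 over the 1769 under 8 bp per cytosine. The widely spaced share was 3.36% of the gains of 51 to 99 bp and 0.659% of those of 200 to 249 bp. From 300 bp on, this share was larger in each longer class. It was 1.68% of the gains of 300 to 399 bp, 4.35% of those of 400 to 499 bp, 23.1% of those of 500 to 999 bp, and took in 21 of the 22 gains of 1000 bp or more. All 4 losses of 1000 bp or more were widely spaced too. The 103 regions had a median of 34 cytosines over a median of 633 bp, and covered 10.9% of the sequence of the long gains with 2.03% of their cytosines. Among regions with fewer than 8 bp per cytosine, 151 of the 1769 long gains and 1 of the 25 long losses reached 500 bp. Of these regions 1 gain and no loss reached 1000 bp.

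**Figure D2:**
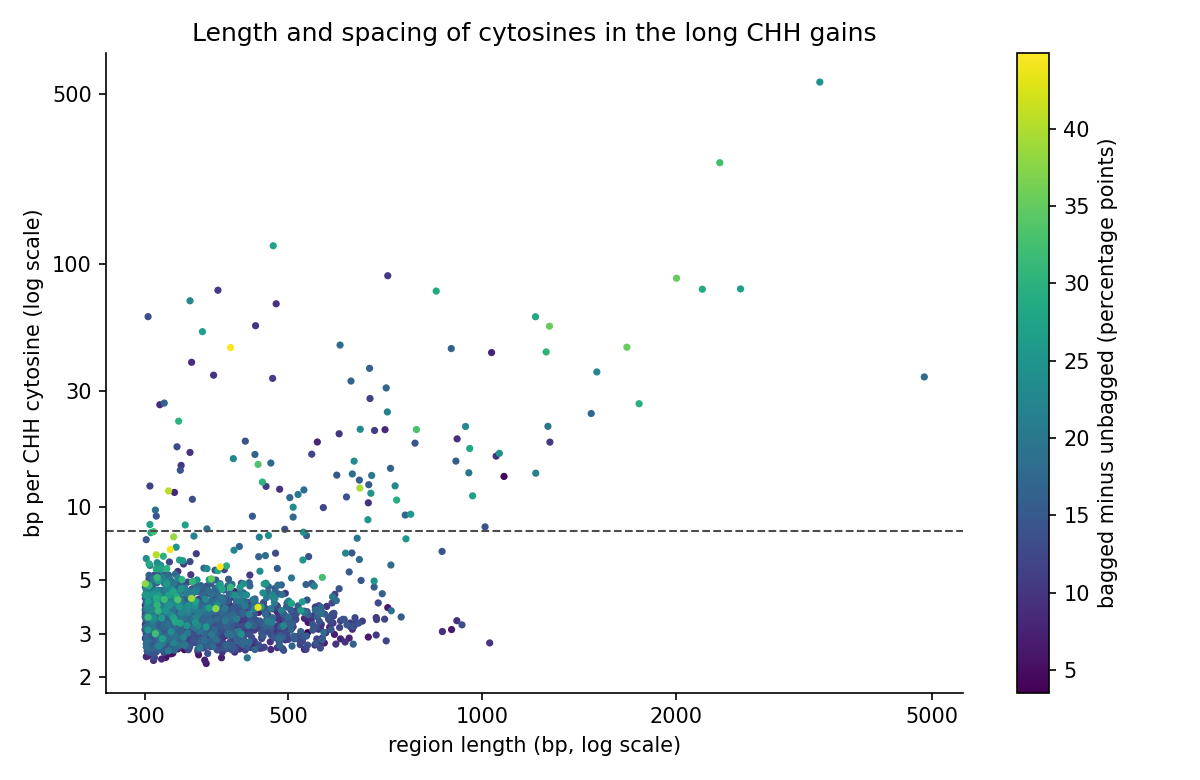
Length (bp, log scale) against spacing (bp per CHH cytosine, log scale) for the 1872 long CHH gains, each a point coloured by the bagged minus unbagged level in percentage points. The dashed line marks 8 bp per cytosine: 1769 regions lie below it in a dense band around 3.50, and 21 of the 22 regions of 1000 bp or more lie above it.

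The 10 longest regions were all widely spaced, and the number of cytosines behind them ranged from 6 to 142. The longest of all, on chromosome 13 from 19296051 to 19300914, spanned 4864 bp with 142 cytosines, at 7.87% in unbagged and 26.0% in bagged skin. The second, on chromosome 8 from 25922939 to 25926285, spanned 3347 bp with only 6 cytosines, or 558 bp per cytosine, at 39.1% and 63.9%. The fourth, on chromosome 15 from 6821173 to 6823513, rested on 9 cytosines over 2341 bp, at 7.49% and 39.8%. Both belong to the 3 regions with the widest spacing, the other being on chromosome 4 from 16330677 to 16331150, where 4 cytosines in 474 bp had 45.1% and 72.6%. A level over so few positions describes those positions and not the span between them.

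The other long-span regions held more cytosines. On chromosome 2 from 10737505 to 10740025 there were 32 cytosines at 25.3% in unbagged and 52.1% in bagged skin. On chromosome 16 from 11690925 to 11693123 there were 28, at 16.8% and 45.4%, and on chromosome 13 from 18577918 to 18579922 there were 23, at 9.32% and 44.4%. The gain on chromosome 3 from 18840703 to 18842381 was 35.4 points over 37 cytosines, a ratio of 6.17, which is the highest ratio among the 10. Chromosome 15 from 11579784 to 11581537 held 66 cytosines (16.1% and 45.4%), chromosome 14 from 9841804 to 9843311 held 42 (30.9% and 53.4%), and chromosome 16 from 26143788 to 26145265 held 61 (24.3% and 41.8%). In all 10 the bagged level was between 26.0% and 63.9%.

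Ranked by the area statistic of the authors' caller in place of length, the leading regions were densely filled with counted cytosines. The statistic goes with the number of cytosines, so this ranking favours such regions. Its median was 566 in the long gains, with a median of 103 cytosines, and 169 in the shorter ones, with 34. In the authors' deposited table the highest value, 1879, belonged to the region on chromosome 14 from 25638938 to 25639965. Its 372 cytosines in 1028 bp, the largest number of any long gain, were at 15.2% in unbagged and 24.9% in bagged skin. Next came chromosome 14 from 13518633 to 13519563 (284 cytosines, 18.4% and 31.8%) and chromosome 5 from 10362482 to 10363378 (286 cytosines, 4.89% and 11.2%). The other 2 were on chromosome 14 from 24500825 to 24501692 (282 cytosines, 8.21% and 17.02%) and on chromosome 8 from 21697454 to 21698084 (231 cytosines, 33.3% and 49.9%). These 5 regions had 2.73 to 3.28 bp per cytosine, and none is among the 10 longest. At least 200 cytosines were found in 24 long gains.

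The closest spacing was 2.27 bp per cytosine, on chromosome 8 from 23710166 to 23710538, where 164 cytosines were at 4.32% in unbagged and 10.8% in bagged skin. It was followed by chromosome 1 from 650782 to 651090 (2.34 bp, 18.8% and 27.4%) and chromosome 2 from 16384108 to 16384478 (2.35 bp, 8.26% and 15.4%). Densely filled regions tended to have the smaller gains. Across the 1872 regions, spacing and difference had a Spearman rho of 0.40, and across the 1769 under 8 bp per cytosine rho was 0.39. The median difference was 11.8 points under 3 bp per cytosine, 12.5 from 3 to 4, 16.1 from 4 to 5 and 20.1 from 5 to 8 bp. Beyond that it was lower again, with 17.4 points from 8 to 15 bp and 17.2 points at 15 bp or more. Shorter gains had 9.66, 11.1, 13.3 and 15.5 points in the classes up to 8 bp, and 17.6 and 16.9 points in the wider ones. Over these 6 classes of the long gains the median number of cytosines went down from 127.5 to 24, and the part of this number in the order was not tested.

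Long CHH gains had low methylation in unbagged skin and about 2 times that level in bagged skin. The authors' mean levels had a median of 13.5% in unbagged skin (quartiles 8.33 and 21.5) and 28.2% in bagged skin (19.7 and 38.8). The difference had a median of 13.4 points (10.2 and 16.8) and the ratio a median of 1.96 (1.69 and 2.40). Weighted by cytosines, the mean level over all long gains was 15.7% in unbagged and 29.2% in bagged skin, and over the shorter gains 14.996% and 27.3%. No long gain was at 0 in unbagged skin: the lowest unbagged level was 1.01%. The shorter gains had medians of 11.6% and 24.4%, a difference of 11.6 points and a ratio of 1.95.

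A bagged level at least 2 times the unbagged one was found in 865 of the 1872 (46.2%, 43.9 to 48.5), where all CHH gains on chromosomes had 46.9%. A difference of at least 20 points was found in 229 (12.2%, 10.8 to 13.8), against 9.01% of all CHH gains. The first share was near that of all gains. Near-zero methylation in unbagged skin, under 5%, was found in 173 long gains, or 9.24% (7.97 to 10.6), and in 18.4% of the shorter ones (17.98 to 18.74). The lower quartile of the unbagged level was 5.65% at 51 to 99 bp, 7.52% at 250 to 299 bp and 8.23% at 300 to 399 bp. A ratio of at least 3 was found in 11.1% of the long (9.72 to 12.6) and 15.4% of the shorter gains (15.1 to 15.8). Levels, differences and ratios come from the same contrast as the rule, so these shares are descriptions without a test.

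The size of the gain went with the level in unbagged skin. In regions under 5% in unbagged skin the median difference was 7.71 points and the median ratio 3.10. From 10 to 20% unbagged, the class with most regions (696), they were 13.2 points and 1.91. From 30 to 40% they were 17.2 points and 1.4998, and from 40 to 60%, in 41 regions, 16.8 points and 1.38. The ratio was lower in each higher class, and the points were higher in each class up to 40%. In each of the 6 level classes the long gains had a larger median difference than the shorter gains, which had 6.92 points under 5% and 11.9 points from 10 to 20%, for example. Over the 1872 regions the unbagged level had a Spearman rho of 0.59 with the difference, of which it is a part, and 0.92 with the bagged level. Among the long gains, length had a rho of -0.0031 with the unbagged level and 0.02 with the difference.

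**Figure D3:**
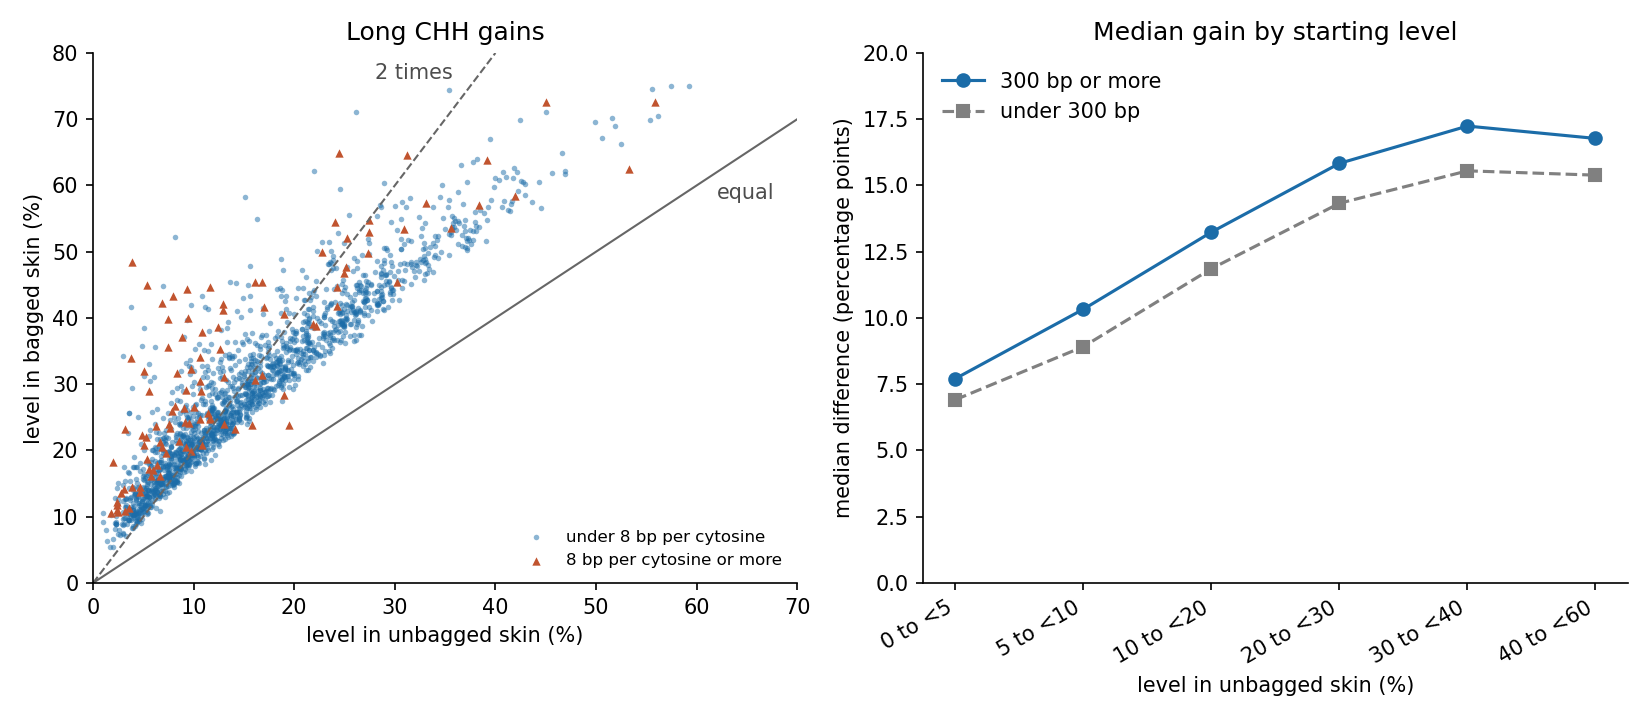
Left, level in unbagged against bagged skin (percent) for the 1872 long CHH gains, with lines for equal levels and for 2 times the unbagged level, and triangles for the 103 widely spaced regions. Right, median difference (percentage points) by unbagged level for gains of 300 bp or more (blue) and under 300 bp (grey), from 7.71 to 17.2 points in the long gains, which lie above the shorter ones in every class.

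In the widely spaced regions the median level was 9.75% in unbagged and 30.4% in bagged skin, a difference of 17.4 points and a ratio of 2.80, while the other 1769 had 13.7% and 28.1%, 13.3 points and 1.94. They supplied 12 of the 37 long gains with a ratio of 5 or more. With fewer positions behind each mean, such values are less precise by counting alone, and its part in these values was not tested.

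At the upper end of the differences, 6 regions reached 40 points. The largest gain, on chromosome 15 from 1434012 to 1434403, had 26.2% in unbagged and 71.1% in bagged skin over 69 cytosines. The next, also on chromosome 15 from 24218468 to 24218874, had 3.84% and 48.4%, with 9 cytosines in 407 bp and the highest ratio of all long gains (12.6). On chromosome 11 from 4624159 to 4624486, 49 cytosines had 8.19% and 52.3%. The best filled of the leading 5 was on chromosome 10 from 27689244 to 27689692, where 116 cytosines, 1 per 3.87 bp, had 15.1% and 58.2%. The last of the 5, on chromosome 15 from 32006563 to 32006888, had 24.4% and 65.0% over 28 cytosines.

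At the lower end, gains of a few points were listed in regions of 2.95 to 3.57 bp per cytosine. The smallest, on chromosome 17 from 8199669 to 8200204, was 3.55 points, with 1.95% and 5.49% over 176 cytosines. It was followed by chromosome 7 from 2908312 to 2908672 (3.78 points, 101 cytosines), chromosome 17 from 16610664 to 16610963 (3.84 points, 96 cytosines), chromosome 1 from 1587336 to 1587737 (4.27 points, 119 cytosines) and chromosome 8 from 9763002 to 9763326 (4.32 points, 110 cytosines). Although small in points, these were ratios of 1.65 to 3.21.

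The lowest unbagged levels were on chromosome 8 from 9994973 to 9995314, with 1.01% in unbagged and 10.6% in bagged skin, and on chromosome 4 from 18894881 to 18895188, with 1.03% and 9.16%. Chromosome 6 from 15242022 to 15242434 had 1.29% and 7.97%, and chromosome 8 from 22993038 to 22993357 had 1.40% and 6.36%. The next was the region on chromosome 7 named above, with 1.71% and 5.49%. These are regions almost free of CHH methylation in uncovered skin that were under 11% in bagged skin. At the other extreme, 2.19% of the long and 4.03% of the shorter gains were at 40 to 60% in unbagged skin. The highest unbagged level of a shorter gain was 78.1%. Of the 1872 long gains, 11 were at 50% or more in unbagged skin, a high level for CHH context. The 5 highest of them were on chromosome 8 from 2923726 to 2924028 (59.2% and 75.03%), chromosome 6 from 14208268 to 14208594 (57.4% and 74.9%), chromosome 8 from 23513125 to 23513529 (56.1% and 70.5%), chromosome 9 from 484120 to 484829 (55.8% and 72.6%, with 23 cytosines in 710 bp) and chromosome 16 from 9008207 to 9008567 (55.6% and 74.6%).

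A region listed in CG or CHG context shared at least 1 bp with 29 long CHH gains, 1.55% (1.04 to 2.22), and with 262 of the 40256 shorter gains, 0.651% (0.575 to 0.734). Of the 29, 14 overlapped CG regions only, 9 overlapped CHG regions only, and 6 overlapped both. A longer region has more room for an overlap, so the pairs were also counted by sequence covered. The long gains had 2.66 CG and 2.13 CHG pairs per 100 kb and the shorter gains 2.71 and 2.86. In windows of 500 bp either side of the centre, which give every region the same room, 2.62% of the long (1.94 to 3.45) and 1.69% of the shorter gains (1.57 to 1.82) had a CG or CHG region.

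The regions that shared sequence mostly had the direction of the CHH gain. Higher levels in bagged skin were listed in 14 of the 20 CG regions (70%, 45.7 to 88.1) and in 15 of the 16 CHG regions (93.8%, 69.8 to 99.8), while over all chromosomes 38.4% of CG and 50.3% of CHG regions were higher. The shorter gains gave 78.3% for CG and 92.8% for CHG. In the windows of 500 bp either side of the centre the shares were lower: 17 of 34 CG regions (50%, 32.4 to 67.6) and 18 of 31 CHG regions (58.1%, 39.1 to 75.5) near long gains were higher in bagged skin. Near the shorter gains these shares were 44.4% and 59.2%. The windows also took in the overlapping regions, at long gains the 14 higher of 20 CG and 15 higher of 16 CHG regions. Regions in the windows that did not overlap a gain were therefore higher less often than the window shares. The higher and lower CG regions that shared sequence with a long gain were also set out by their unbagged level, without a test. The unbagged level is a part of the difference, and the same split over all CG regions was not made. It can therefore not be called particular to CG regions at long CHH gains. The 14 higher ones had a median of 28.01% in unbagged and 55.0% in bagged skin, and 13 of them were under 50% in unbagged skin. The 6 lower ones were all at 53.7% or more in unbagged skin, with medians of 79.5% and 41.0%.

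**Figure D4:**
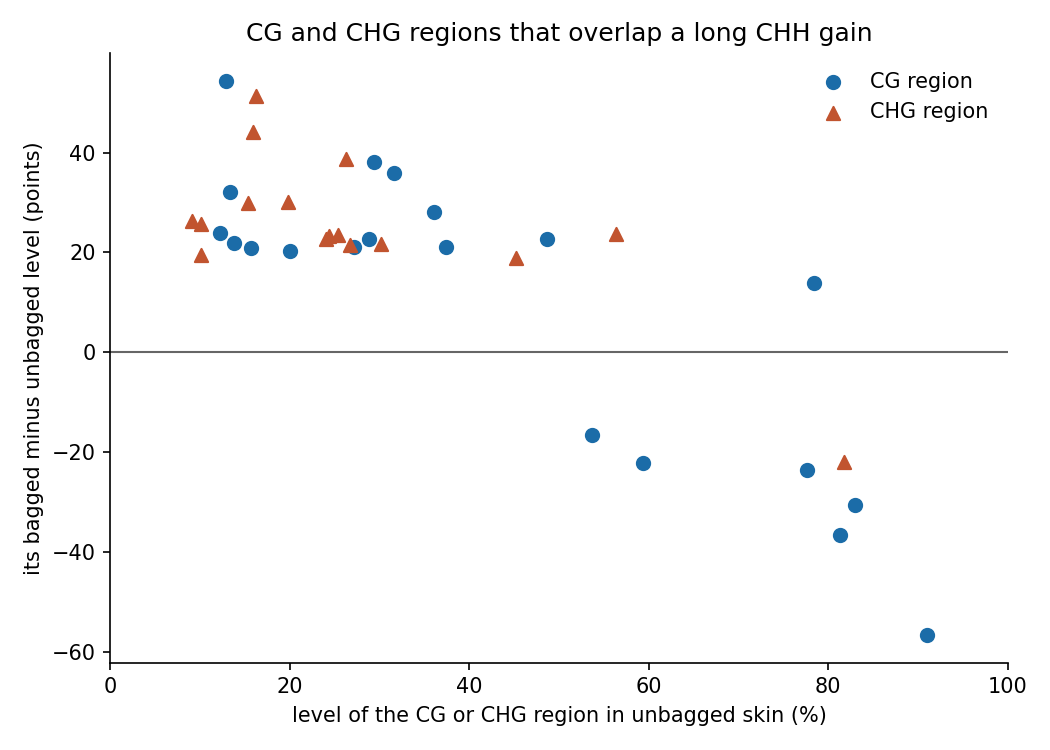
Each point is a CG (circle) or CHG (triangle) region that shares at least 1 bp with a long CHH gain, placed by its own level in unbagged skin (percent) and its bagged minus unbagged difference (percentage points). The 29 higher regions lie above the line at 0, mostly from unbagged levels under 50%, and the 7 lower ones are at unbagged levels of 53.7% to 91.02%.

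In the 6 long gains that overlapped both other contexts, every overlapping region was higher in bagged skin. On chromosome 10 from 25466112 to 25466430, CHH methylation was at 14.4% and 41.0%. The overlapping CG region had 20.05% and 40.4% over 7 cytosines, and the CHG region 15.9% and 60.02% over 10. On chromosome 3 from 24764353 to 24764739, CHH methylation was at 7.27% and 22.01%. There CG had 13.3% and 45.5% over 22 cytosines, and CHG had 15.3% and 45.3% over 7. On chromosome 12 from 12121984 to 12122314, the pairs of levels were 3.98% and 14.3% in CHH, 28.9% and 51.5% in CG, and 25.4% and 48.96% in CHG context. Its CG region held 52 cytosines and its CHG region 40. At these 3 places all contexts were higher by 10 points or more.

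The remaining 3 had smaller CHH gains. Chromosome 14 from 16282843 to 16283148 had 1.74% and 10.3% in CHH context. There CG had 15.7% and 36.7% over 30 cytosines, and CHG had 10.04% and 29.6% over 12. Chromosome 6 from 15234737 to 15235121 had 3.42% and 8.93% in CHH context, and 36.1% and 64.1% in CG context over 20 cytosines. It had 2 overlapping CHG regions, at 30.2% and 51.9% over 7 cytosines and at 26.7% and 48.2% over 9. On chromosome 7 from 2908312 to 2908672, the region with the second smallest CHH difference of all long gains, CG had 27.2% and 48.2% over 58 cytosines and CHG had 24.04% and 46.8% over 49 cytosines.

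A lower CG or CHG region lay at 7 long CHH gains. The largest contrast was on chromosome 6 from 18584485 to 18584808, where CHH had 28.9% and 50.6% and an overlapping CG region of 4 cytosines had 91.02% and 34.5%, with 26 bp in common. On chromosome 15 from 17253965 to 17254345, CHH had 15.4% and 30.6% and CG had 81.4% and 44.8% over 14 cytosines. On chromosome 9 from 23716307 to 23716823, the CG region of 10 cytosines lay wholly inside the CHH gain. There CHH had 15.2% and 28.5% and CG had 83.04% and 52.4%. The same held on chromosome 10 from 13497640 to 13498190. CHH there had 15.8% and 33.1%, and CG had 59.4% and 37.2% over 15 cytosines.

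Of the 6 lower CG regions these 2 lay wholly inside a long gain, as did 10 of the 14 higher ones. On chromosome 13 from 5300431 to 5300802, CHH had 13.3% and 36.4% and CG had 53.7% and 37.1% over 28 cytosines. On chromosome 1 from 18822673 to 18823324, CHH had 14.5% and 25.004%. There CG had 77.6% and 54.1% over 10 cytosines, and the regions shared only 7 bp. The single lower CHG region was on chromosome 4 from 20872548 to 20872975, around the CHH gain from 20872604 to 20872905. It rested on 6 cytosines in 428 bp, with 81.8% and 59.8% where CHH had 39.5% and 57.8%. Levels over so few positions describe those positions and not the span.

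Long gains lay scattered among shorter ones. The nearest other CHH gain of any length was a median of 2429 bp away (quartiles 753.5 and 6465), and for shorter gains 2716 bp (888 and 6842). Another CHH gain lay within 2 kb of 44.3% of the long gains (42.02 to 46.6) and 42.1% of the shorter ones (41.7 to 42.6). Within 100 bp the shares were 5.02% (4.08 to 6.11) and 3.66% (3.48 to 3.85). No 2 neighbouring CHH gains were less than 51 bp apart, counted from the end of one to the start of the next. A CHH loss within 2 kb was found for 3.79% of the long (2.97 to 4.76) and 4.64% of the shorter gains (4.44 to 4.85).

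A second long gain was usually far off. The median distance between a long gain and the nearest other one was 80978 bp, and 199 of the 1872 (10.6%, 9.27 to 12.1) had one within 10 kb. For the shorter gains the share with a long gain within 10 kb was 9.26% (8.98 to 9.55). The closest neighbours, 22 long gains with another within 500 bp, formed 11 pairs in all. In 2 of these pairs the step was 57 bp. One was on chromosome 2, from 2969490 to 2969881 and from 2969938 to 2970268, at 2.94% and 7.32% and at 3.22% and 11.4%. The other, on chromosome 17, put a filled region of 108 cytosines (23045202 to 23045542, 9.94% and 23.7%) beside a widely spaced one of 24 cytosines (23045599 to 23046633, 3.22% and 10.9%). These pairs were picked for their distance after the values were seen.

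No stretch of 10 kb held more than 3 long gains, and 4 stretches held 3. The 3 of these that come first in chromosome order are described. The first was on chromosome 3 from 17217765 to 17224045. Its regions had 18.3%, 20.9% and 19.9% in unbagged and 31.6%, 32.8% and 30.8% in bagged skin, so that they were close to each other in both. On chromosome 4 from 18953324 to 18955768, 3 long gains fell within 2445 bp and took up 1388 bp of it, with differences of 11.5 to 13.3 points. On chromosome 7 from 2604687 to 2613015 the differences were 10.8 to 17.6 points. No CHH loss was listed in any of these 3 stretches.

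Long gains were present on all 17 chromosomes, from 67 on chromosome 4 to 161 on chromosome 15. Counted up to the last listed region, which stands in for the length of a chromosome, the density ran from 2.88 per Mb on chromosome 4 to 5.02 per Mb on chromosome 8, with a median of 3.78. CHH gains of any length were more even, at 81.8 to 92.3 per Mb. The share of CHH gains that were long was 3.47% on chromosome 4 (2.70 to 4.39) and 5.43% on chromosome 8 (4.57 to 6.41), and chromosomes 17 and 13 followed with 5.18% and 5.01%. These are the extremes of 17 values, picked after they were seen. The median unbagged level of the long gains ranged from 10.99% on chromosome 13 to 18.5% on chromosome 12, and the median ratio from 1.86 to 2.08. In 1 Mb bins, 25 of 496 held no long gain and the fullest held 12.

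Along the chromosomes, long gains were denser towards the middle. Each chromosome was cut into 10 equal parts. The 4 middle parts held 878 of the long gains, or 4.52 per Mb, and the 4 outermost parts held 612, or 3.15 per Mb. CHH gains of any length were at 93.8 per Mb in the middle and 78.5 per Mb at the ends. The long share of the gains was 4.81% in the middle (4.51 to 5.13) and 4.01% at the ends (3.71 to 4.33). It was highest in the sixth part, at 5.25% (4.62 to 5.93), and lowest in the first, at 3.71% (3.13 to 4.36). The middle had the higher share on 13 of the 17 chromosomes, the exceptions being chromosomes 7, 9, 12 and 13. Median unbagged levels were 13.1% in the middle and 13.9% at the ends, and median spacing was 3.47 and 3.60 bp per cytosine. Where the centromeres lie was not analysed here.

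**Figure D5:**
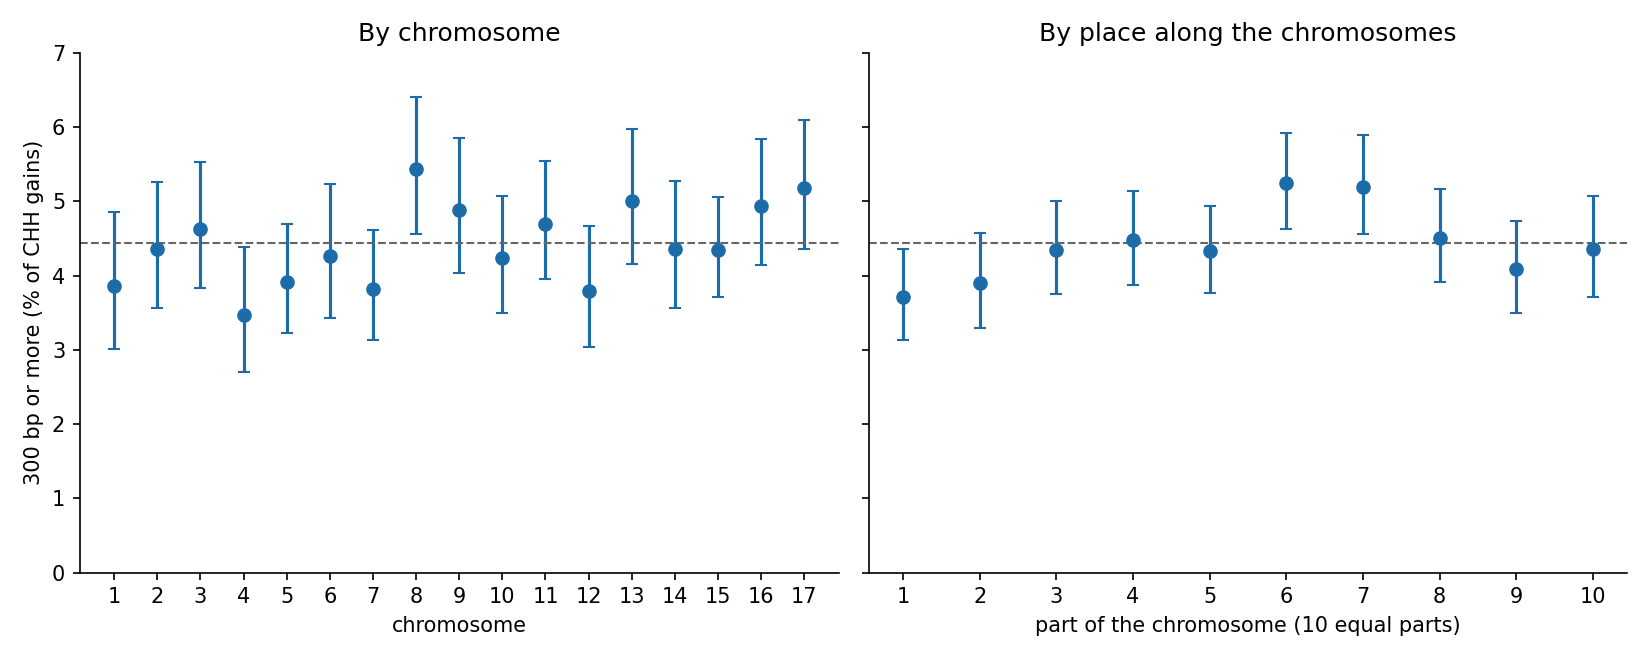
Share of CHH gains that are 300 bp or longer (percent, with 95% exact binomial intervals) on each chromosome (left) and in each of 10 equal parts of the chromosomes, counted from their start (right). The dashed line is the share over all chromosomes, 4.44%, with chromosome 8 highest at 5.43% and the sixth part at 5.25%.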

How the data were processed

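Skin of bagged and unbagged fruit (3 samples each) was analysed by bisulfite sequencing (Accel-NGS Methyl-Seq library kit), as the labels' protocols say. The submitters' processing notes name FastQC and Bismark 0.16.3. The calling of regions, genome build, coverage and conversion rate were not given in the sources used here. Per the file headers, the deposited levels are fractions between 0 and 1, as 1 mean per group and region, printed here as percentages. The deposited difference and area statistic are scores of the authors, the former equal to bagged minus unbagged. Lengths include both ends, and positions are as deposited.

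Distances were measured edge to edge on 1 chromosome, and overlap needed 1 bp. Medians, quartiles and exact binomial intervals came from Python 3.11.15, pandas 2.3.3 and scipy 1.17.1. The interval functions were checked on simulated positions. The regions, limits and lists were chosen with earlier results of these data known. Named were the 10 longest regions, the 5 extremes of difference and unbagged level, the 5 largest area statistics, the 3 extremes of spacing, regions overlapping both other contexts or a lower one, and 3 of the 4 fullest stretches of 10 kb, with ties broken by chromosome and start. No test across samples was possible, and an exact two-sided permutation test of 3 against 3 samples cannot give a p below 0.1.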

Additional observations from a re-analysis of the deposited data

Results flagged for a closer look

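The comparisons above used chromosomes only. On unplaced scaffolds the same limits were met by 202 CHH gains, on 62 of the 192 scaffolds in the table, where a count of 0 would have allowed up to 0.0949% of the 3162 CHH gains there. They were 6.39% of those gains (95% exact binomial interval 5.56 to 7.30), with median levels of 6.25% in unbagged and 15.4% in bagged skin, a ratio of 2.33 and 3.28 bp per cytosine, and 2 long losses were listed beside them.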

How the results depend on the processing

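Of 322 alternative values of 12 results, 284 stayed within a set range of the reported one, among them all 204 with a chromosome left out. The range was the binomial interval for shares, the quartiles for medians and a factor of 1.5 for counts and density. No chromosome held more than 161 of the 1872 long gains. Leaving 1 out could therefore not move their number by a factor of 1.5, and could hardly move the median density so far. Quartiles of single regions are a wide range for a median, so staying within them says little. None reversed a direction, but the regions were chosen as gains, so their differences and ratios could not reverse. The number of long gains was 3660 at a minimum of 250 bp, 562 at 400 bp, 217 at 500 bp and 229 at 20 points. In the same order their share of gains was 8.69%, 1.33%, 0.515% and 6.04%, their median density per chromosome 7.54, 1.21, 0.436 and 0.434 per Mb, and the share with another long gain within 10 kb 18.6%, 4.98%, 0.922% and 2.62%. At 10 points these shares were 5.37% of gains and 8.34% with a neighbour. With regions at most 100 bp apart merged, 5.39% of gains were long. At 500 bp and at 20 points, 94.3% and 92.3% of long regions were gains, 2.76% and 3.06% overlapped a CG or CHG region, and 5.07% and 2.62% had a loss within 2 kb. At 20 points the median bagged level was 44.2%, the difference 23.8 points and the spacing 4.37 bp. Overlap was 3.21% at up to 500 bp apart, 2.62% in equal windows and 0.801% for CHG regions alone. Another long gain lay within 5 kb of 6.41% and 50 kb of 36.9%, and a loss within 1 kb of 2.03% and 10 kb of 16.8%. With alternatives chosen after seeing the data, 98.6% of long regions under 8 bp per cytosine were gains, and with at least 20 cytosines 5.41% of gains were long and 2.76% had a loss within 2 kb. The cause of these shifts was not tested. No paired analysis was possible because the deposited means combine the replicates, and for the same reason no replicate could be left out. The depth is unknown, so no level has an error.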
